A study of Mus musculus with 12 samples.

Results

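The interferon-stimulated and antigen presentation genes followed here are 36 genes among the 38087 of a table of exonic read counts from mouse liver. They were taken by symbol, from a list drawn up with earlier results of these data known. Symbols matched for 35 of them, and Ifit3b was found by its Ensembl identifier, under an older symbol. The livers came from germ-free male C57BL/6j mice, raised without any microorganism and 13 to 16 weeks old. The 6 mice of the growth hormone (GH) group received recombinant human GH under the skin, 50 µg per mouse, and the 6 controls received phosphate-buffered saline (PBS). Injections over 5 days fell at ZT 2 and at ZT 14 of each day, where ZT counts the hours since lights on, and collection was at ZT 2. The labels give both groups the same germ-free status, sex, strain, injection scheme and collection time, so the data hold no liver of a colonised or uninjected mouse. Human GH binds the prolactin receptor as well as the GH receptor, which limits the injections as a model of the mouse hormone.

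Interferons are secreted proteins that cells release when they sense foreign nucleic acid or are activated by immune signals. Type I interferons act through JAK1 and TYK2 on a complex that holds STAT2 and IRF9 and binds a DNA element called ISRE in front of antiviral genes. Type II interferon (interferon gamma) acts through JAK1 and JAK2 on factors that bind another element called GAS, and it raises the genes that cut, transport and present peptides to T cells. GH acts through JAK2 too, on STAT5B, which binds elements of the GAS type. In whole liver the level of these genes is set in part by hepatocytes and in part by the Kupffer, dendritic and endothelial cells of the organ. Whether it was a basal level in these germ-free, injected mice was not tested.

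The 36 genes were split by role. The 21 genes of the type I antiviral group are 18 effectors (the Ifit, Oas, Oasl and Mx families, Isg15, Rsad2, Usp18, Ifi44, Ifi27l2a, Bst2 and Xaf1) and the transcription factor genes Irf7, Irf9 and Stat2. The 13 genes of the MHC and immunoproteasome group are 3 immunoproteasome subunits, 3 genes of peptide loading, the class I genes B2m, H2-K1 and H2-D1 with their regulator Nlrc5, and the class II genes H2-Aa, H2-Ab1 and Cd74. Irf1 and Irf8, which answer to both kinds of interferon or mark myeloid cells, were kept apart.

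The promoter sequences show which of these genes carry the 2 elements next to their start site, so a few are printed before the values. RefSeq windows (GRCm38.p6) from 250 bases before to 50 bases after the start were at hand for 26 of the 36 genes. The ISRE core was searched on either strand as GAAA, any 2 bases and GAAA again, and the GAS core as TTCNNNGAA, which reads the same on both strands. An ISRE core stood in the windows of 9 of the 26 genes (34.6%), against 3.99% of 27025 genes with a window. It stood in 8 of 15 type I antiviral genes (53.3%) and in 1 of 9 MHC and immunoproteasome genes (11.1%), which was B2m. A GAS core stood in 6 of the 26 (23.1%), against 9.55% of all genes. It stood in 3 of 15 type I antiviral genes (20%) and in both genes kept apart, Irf1 and Irf8. Of the 9 MHC and immunoproteasome genes 1 had it (11.1%), which was Psmb8. Neither core was in the window of Psmb10. The stretches below are read 5′ to 3′ on the strand of the gene, and capitals mark the bases of the cores.
Ifit1 (chr19:34640755-34640843, plus strand): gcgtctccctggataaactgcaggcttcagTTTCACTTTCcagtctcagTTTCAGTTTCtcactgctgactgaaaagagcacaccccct
Ifit3 (chr19:34583343-34583446, plus strand): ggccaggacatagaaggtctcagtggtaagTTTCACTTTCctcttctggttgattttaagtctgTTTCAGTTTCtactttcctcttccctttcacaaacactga
Ifit3b (chr19:34607739-34607842, plus strand): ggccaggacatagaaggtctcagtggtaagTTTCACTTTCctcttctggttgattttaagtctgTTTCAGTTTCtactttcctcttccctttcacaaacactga
Isg15 (chr4:156200845-156200926, minus strand): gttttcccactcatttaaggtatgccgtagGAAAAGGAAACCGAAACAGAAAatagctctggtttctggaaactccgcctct
Bst2 (chr8:71537557-71537638, minus strand): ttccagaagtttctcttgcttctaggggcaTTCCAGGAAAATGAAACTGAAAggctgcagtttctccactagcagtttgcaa
Rsad2 (chr12:26456533-26456602, minus strand): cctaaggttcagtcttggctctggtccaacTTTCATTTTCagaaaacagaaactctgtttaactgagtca
B2m (chr2:122147518-122147587, plus strand): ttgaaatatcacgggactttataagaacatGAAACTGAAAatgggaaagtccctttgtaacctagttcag
Irf1 (chr11:53769894-53769962, plus strand): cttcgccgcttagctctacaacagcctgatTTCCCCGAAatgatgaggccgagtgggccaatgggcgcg
Irf8 (chr8:120736157-120736243, plus strand): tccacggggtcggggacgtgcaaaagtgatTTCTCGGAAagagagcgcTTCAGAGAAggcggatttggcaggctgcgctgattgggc

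Ifit1, Ifit3 and Ifit3b each showed a pair of ISRE cores, and Isg15 showed 3 that overlap one another. In Bst2 a GAS core runs into 2 ISRE cores. Irf1 had 1 GAS core that began 90 bases before its start, and Irf8 had 2. The 104 printed bases of Ifit3 and of Ifit3b were identical. The transcripts of these neighbours on chromosome 19 are close relatives as well, so reads may have been split between them. A match is a description of the letters, not a measured binding site.

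Libraries held 19523104 to 23278931 counts, and the groups overlapped in depth. PBS replicates 1 and 2 and GH replicates 5 and 6 stood apart from the other 8 livers in Dbp, a clock-controlled gene that changes with the time of day: they had 8.61 to 32.2 CPM, and the others 0.604 to 2.46 CPM. The labels give all 12 livers 1 collection time, and whether these 4 differed in it was not tested. Results that they move are also given without them, a choice made after seeing the data that leaves 4 livers per group. All 36 genes passed the filter on low counts. Levels are given as counts-per-million after TMM scaling (CPM), and changes as log2 fold changes, GH minus PBS, with a standard error and with p from edgeR's quasi-likelihood test adjusted over all 14235 genes tested. Nothing in the labels says that the samples of a group came from separate cages or litters, so each p reflects the spread among these samples, which may be technical in part.

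Levels differed far more between the genes than between the groups. Per kilobase of exon, B2m, the light chain of class I molecules, led in PBS with 1393 ± 143 CPM per kilobase, followed by the heavy chain genes H2-K1 with 293 ± 31.9 and H2-D1 with 147 ± 19.7 (SD, n = 6). Each of these 3 stood above the next beyond the spread. Bst2, which encodes tetherin, a protein that holds budding virus at the cell surface, came next with 51.7 ± 4.43 and did not differ from Cd74 (46.6 ± 15.2) beyond the spread. The other antiviral effectors lay between 0.291 for Mx1 and 5.80 for Ifit3 CPM per kilobase. The 3 class I genes took 0.249 ± 0.0254% of all counts in PBS, and the 21 type I antiviral genes together 0.0205 ± 0.00143%. Mx2 and Oas1b are annotated in GENCODE M21 as polymorphic pseudogenes, that is, genes whose reading frame is broken in the reference strain, so their RNA is measured here without an intact protein behind it.

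After GH 1 gene of the 36 was called. Psmb10, a catalytic subunit of the immunoproteasome, fell to 0.750 of its PBS level, and the other 35 genes did not pass. That makes 1 of 36 called (2.78%; 3 without the 4 livers of high Dbp), against 4.79% of the genes tested. No gene of the 36 rose, against 2.27% of the genes tested, and the share that fell was the 2.78% given above, against 2.52%. Of the estimates, 26 of the 36 log2 fold changes were below 0 (72.2%), against 49.9% of the genes tested, and their median was -0.12, against 0.00. The genes of one role rise and fall together across livers, so these counts are not counts of independent events. Over all genes, 682 of 14235 were called, 323 higher and 359 lower. Higher genes made up 47.4% of those calls, but 24.3% with library totals in place of TMM, which shifted the median of all genes by -0.06. Psmb10 was the called gene of the 36 with either scaling.

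**Figure D1:**
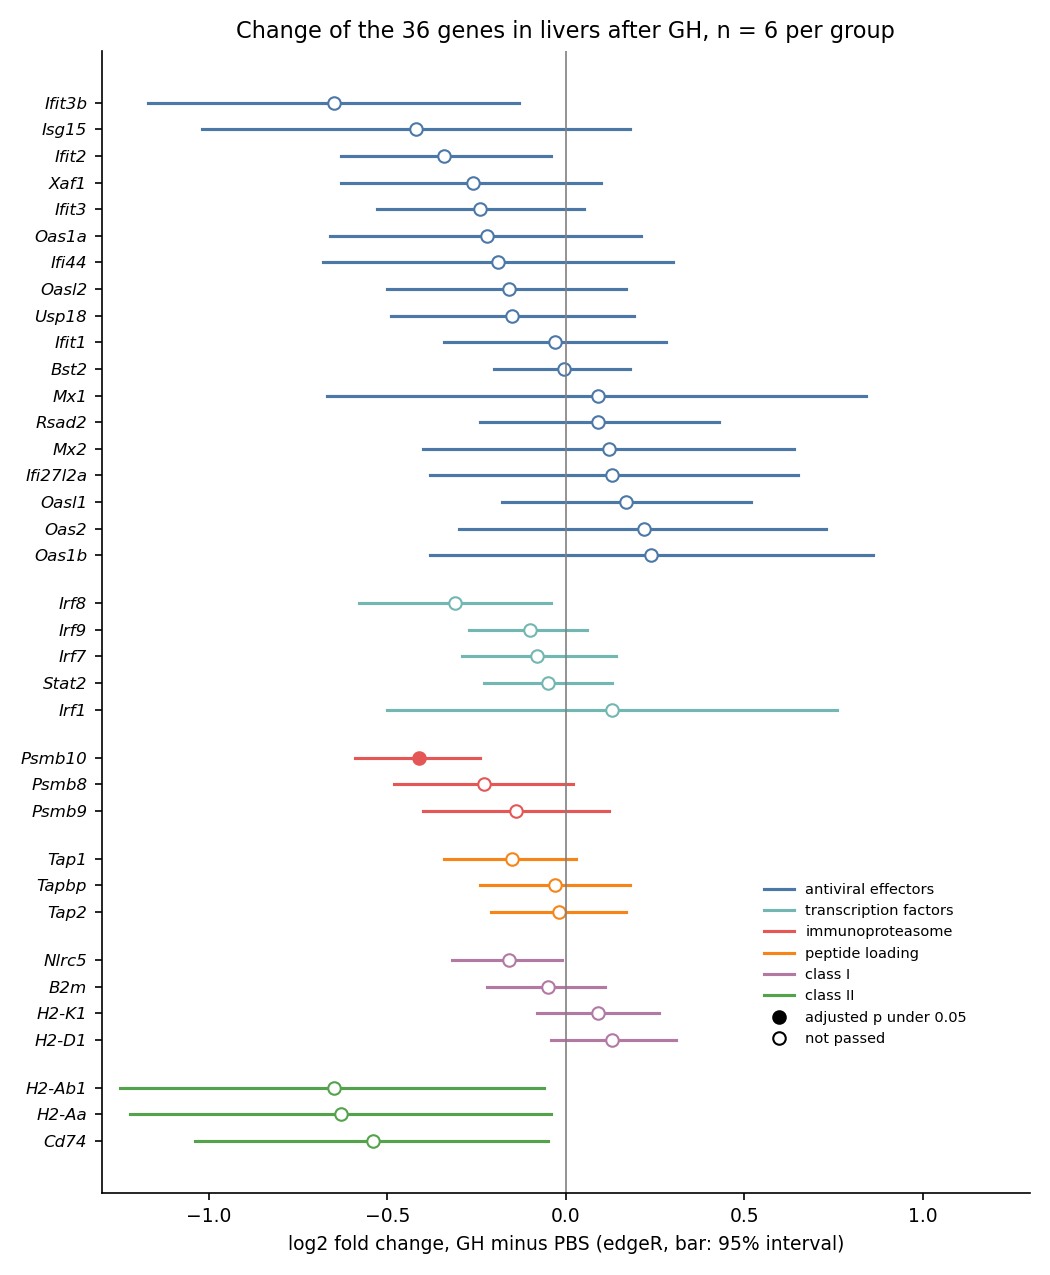
Log2 fold change of each of the 36 genes, GH minus PBS, on the horizontal axis, with genes listed by role on the vertical axis. Points are edgeR estimates, bars are 95% intervals, and the filled point marks an adjusted p under 0.05. Psmb10 is the single filled point at -0.41, and the class II genes H2-Aa, H2-Ab1 and Cd74 lie lowest as a group at -0.63, -0.65 and -0.54 with wide bars.

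The type I antiviral genes and the MHC and immunoproteasome genes were compared as the groups of interest. Of the 21 type I antiviral genes none was called, and their median log2 fold change was -0.08, with a range of -0.65 to 0.24. At an unadjusted p under 0.05 edgeR gave 2 of these 21 (9.52%), both lower in GH, against 19.0% of the genes tested (9.83% lower), and DESeq2 called none of the 21 either. Without the 4 livers of high Dbp, left out after seeing the data, 2 of the 21 passed as lower, Ifit3b and Isg15. In that fit 397 of the 14237 genes tested did so, and the median of the 21 was -0.13. Mx2, 1 of the 21, was itself highest in those 4 livers. With all 12 livers neither Ifit3b nor Isg15 passed (edgeR adjusted p = 0.153 and 0.461). Of the 13 MHC and immunoproteasome genes 1 fell and 12 did not pass, with a median of -0.15 and a range of -0.65 to 0.13. An unadjusted p under 0.05 was reached by 5 of these 13 (38.5%), all lower in GH, 3 of them the class II genes that move as a unit. The difference between the medians of the groups was not tested, because the genes were chosen with results of these data known.

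The precision of these estimates differed by group. The 95% interval of the log2 fold change lay within 1 in either direction for 19 of the 21 type I antiviral genes and within 0.5 for 8 of them. For the 10 MHC and immunoproteasome genes other than class II it lay within 1 for all and within 0.5 for 9, the exception being Psmb10. Class II genes had intervals with a median half-width of 0.59, and none of the 3 lay within 1.

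Among the antiviral effectors Ifit3b had the smallest p. The Ifit genes encode proteins that bind foreign RNA and hold back its translation. Ifit3b had a lowest, median and highest value of 1.98, 2.32 and 3.25 CPM in PBS and of 0.912, 1.45 and 2.64 CPM in GH. GH replicates 5 and 6, at 2.13 and 2.64 CPM, lay within the PBS range, and the other 4 GH livers lay below it. The log2 fold change was -0.65 ± 0.25 (SE, n = 6; adjusted p = 0.153). Without GH replicate 6 the change was -0.86 and it passed (adjusted p = 0.0400). Without the 4 livers of high Dbp, which include GH replicates 5 and 6, it was -1.13 (adjusted p = 0.0198).

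Ifit3, its near-copy, ran from 8.62 to 11.8 CPM in PBS and from 6.33 to 11.3 CPM in GH, with a log2 fold change of -0.24 (adjusted p = 0.378). Ifit2 ran from 4.20 to 5.97 CPM in PBS and from 3.39 to 5.76 CPM in GH, with a change of -0.34 (adjusted p = 0.196). Ifit1 had means of 6.95 ± 1.199 and 6.80 ± 1.40 CPM (SD, n = 6) and a change of -0.03. So the groups overlapped for all of the Ifit genes, and the 4 estimates ran from -0.65 for Ifit3b to -0.03 for Ifit1.

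The other effectors split in direction. Isg15, a ubiquitin-like protein that is joined to many targets, had 1.93 ± 0.704 CPM in PBS and 1.43 ± 0.574 CPM in GH (SD, n = 6), a log2 fold change of -0.42 (adjusted p = 0.461). Without the 4 livers of high Dbp the 4 PBS livers left had 1.93 to 2.97 CPM and the 4 GH livers 0.828 to 1.47 CPM of Isg15, which did not overlap, and the change was -1.04 (adjusted p = 0.0283). Usp18, the enzyme that removes ISG15 and restrains the type I receptor, had -0.15, Xaf1 -0.26 and Ifi44 -0.19. The Oas genes make or mimic the sensor of double-stranded RNA that sets off RNase L: Oas1a and Oasl2 had -0.22 and -0.16, while Oas1b, Oas2 and Oasl1 had 0.24, 0.22 and 0.17 (0.04, -0.04 and -0.00761 without the 4 livers of high Dbp). Rsad2 (viperin, an enzyme that makes a chain terminator of viral RNA synthesis) had 10.03 ± 1.196 CPM in PBS and 10.7 ± 3.13 CPM in GH. GH replicate 6 alone reached 16.4 CPM of Rsad2, and without it the change went from 0.09 to -0.07. Bst2 had means of 46.7 and 46.5 CPM. Mx1 and Ifi27l2a, at 0.09 and 0.13, did not pass either.

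One GH liver stood above the others across many antiviral genes. GH replicate 6 had the highest value of its group for 11 of the 21 type I antiviral genes, and GH replicate 2 the lowest for 8. The mean deviation of the 21 genes from their PBS means was 0.23 on the log2 scale in GH replicate 6 and ran from -0.27 to -0.03 in the other 5 GH livers. In the PBS group it ran from -0.15 in PBS replicate 2 to 0.24 in PBS replicate 4. Its means were 0.00 ± 0.15 in PBS and -0.09 ± 0.18 in GH (SD, n = 6), and the groups overlapped. Without GH replicate 6 the median change of the 21 genes was -0.15, and without PBS replicate 4 it was -0.03.

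**Figure D2:**
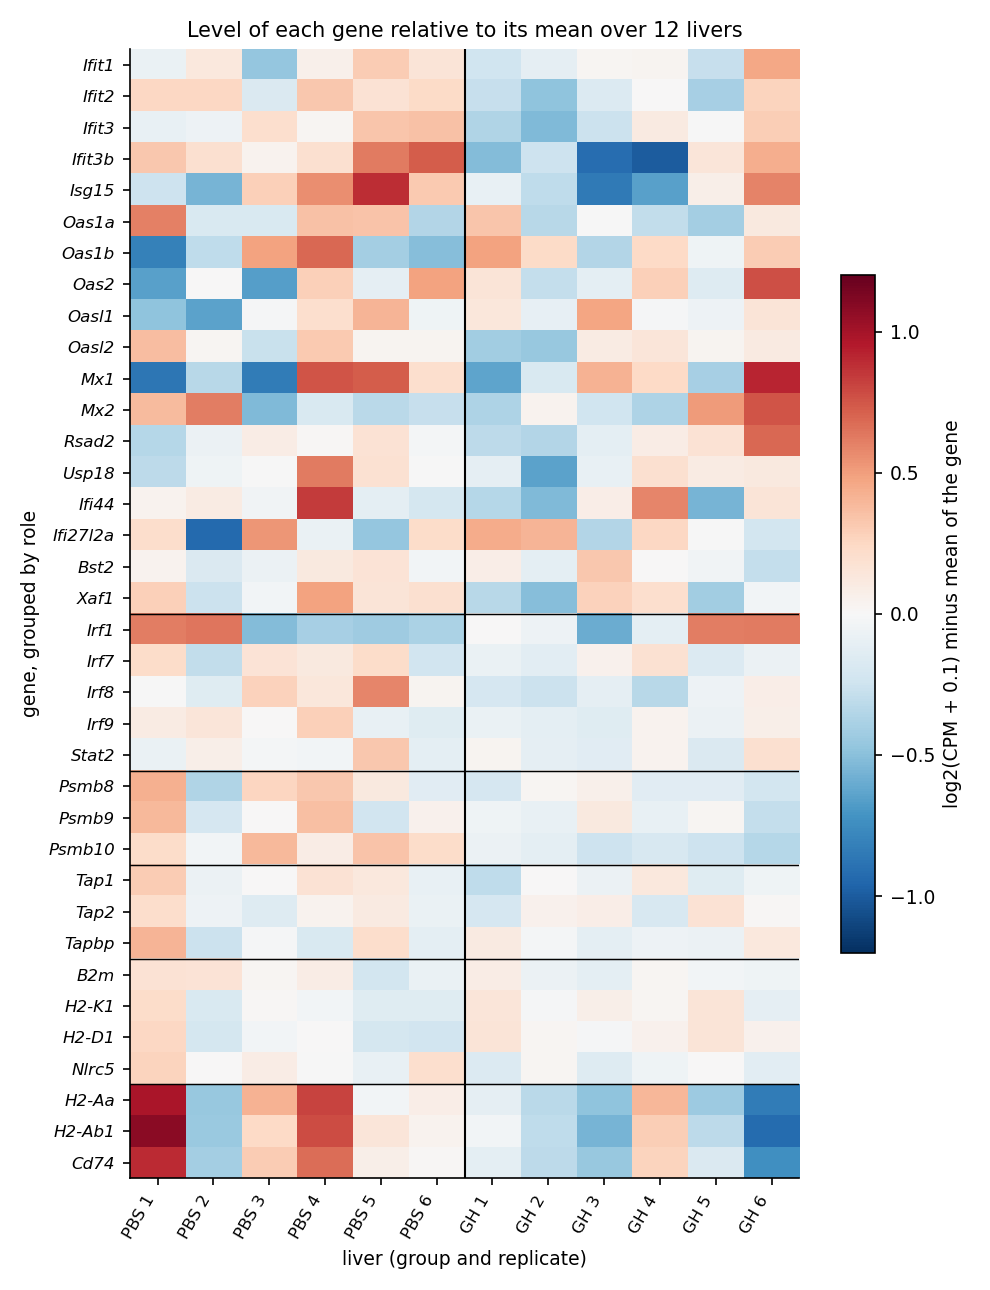
Level of each of the 36 genes (rows, grouped by role) in each of the 12 livers (columns), as log2(CPM + 0.1) minus the mean of the gene over the livers. The class II rows share 1 pattern that is highest in PBS replicate 1 and lowest in GH replicate 6, Irf1 is high in 4 livers from both groups, and the rows of antiviral effectors are warmest in PBS replicate 4 and GH replicate 6.

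None of the 5 transcription factor genes was called. Irf8, a factor of macrophages and dendritic cells, had the smallest p, with a lowest, median and highest value of 6.06, 7.13 and 10.1 CPM in PBS and of 5.29, 6.03 and 7.08 CPM in GH. Its log2 fold change was -0.31 ± 0.13 (SE, n = 6; adjusted p = 0.189), and the groups overlapped. Without the 4 livers of high Dbp it was -0.50 (adjusted p = 0.0511). Stat2 and Irf9, which belong to the ISRE-binding complex, had means of 32.3 ± 3.83 and 32.2 ± 3.56 CPM in PBS and of 31.1 ± 3.04 and 29.97 ± 1.86 CPM in GH (SD, n = 6). Their changes were -0.05 and -0.10, and that of Irf7, the amplifier of the interferon response, was -0.08. Irf9 shares 123 exonic bases with Rnf31 on the same strand, and reads there may count for either.

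Irf1 fell into high and low livers that did not follow the treatment. Irf1 encodes a factor that carries much of the response to interferon gamma, and it is also induced early by other signals. It had 37.9 and 38.7 CPM in PBS replicates 1 and 2 and 38.1 and 38.4 CPM in GH replicates 5 and 6. The other 4 PBS livers lay between 17.2 and 19.1 CPM, and the other 4 GH livers between 16.4 and 24.9 CPM. Mx2, an antiviral GTPase gene, was highest in the same 4 livers, with 5.89, 6.95, 6.48 and 7.69 CPM, against 3.09 to 4.64 CPM in the other 8. Both groups held 2 such livers, and the log2 fold changes were 0.13 for Irf1 and 0.12 for Mx2 (adjusted p = 0.863 and 0.845). These are the livers of high Dbp, and without them the changes were 0.25 and 0.10 (adjusted p = 0.242 and 0.789).

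**Figure D3:**
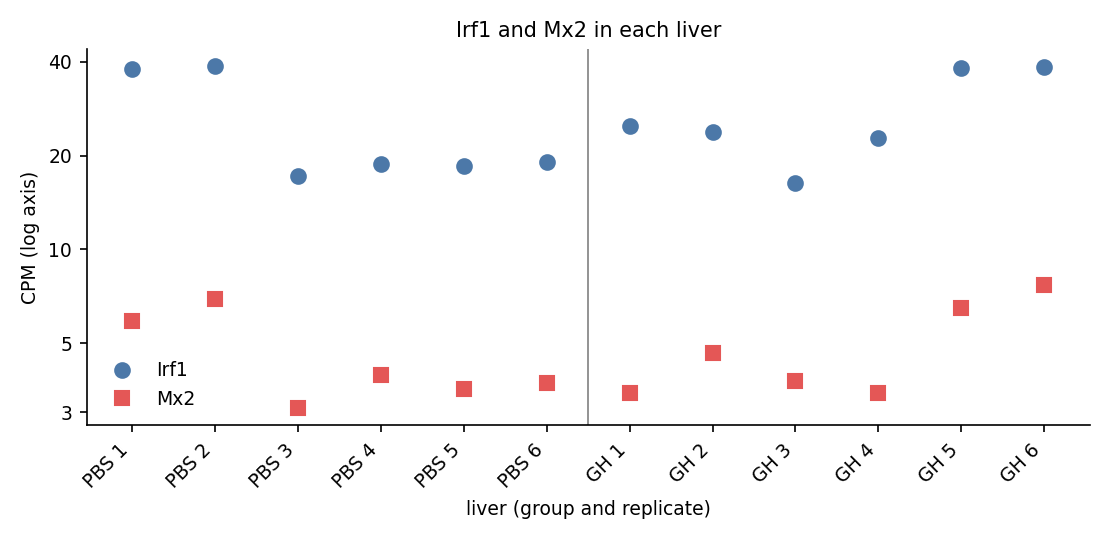
CPM of Irf1 (circles) and Mx2 (squares) on a log axis in each of the 12 livers, PBS to the left and GH to the right of the line. Irf1 lies near 38 CPM in PBS replicates 1 and 2 and GH replicates 5 and 6 and at 24.9 CPM or below elsewhere, and Mx2 is highest in the same livers.

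Other genes of the lists were also highest in these 4 livers, and they are named after their values were seen. Socs3, an inhibitor of cytokine signalling, had 10.6 to 18.96 CPM there and 2.39 to 8.28 CPM in the other 8, and Stat3, the factor of interleukin 6 signalling, 162.6 to 218 CPM and 126 to 149.7 CPM. Cx3cr1, of the monocyte list, had 30.9 to 37.2 CPM there and 19.96 to 27.6 CPM elsewhere, and it made up nearly all of the summed level of that list (34.7 to 40.01 against 21.7 to 28.9 CPM). Ccr2, of the same list, had 1.69 to 2.24 CPM there and 0.682 to 1.88 CPM elsewhere, an overlap that came from PBS replicate 3. The monocyte genes Ly6c2, Chil3 and S100a4 did not follow Cx3cr1, with totals of 88, 57 and 48 counts over the 12 libraries. The part of these cells, or of the time of collection, in the Irf1 and Mx2 values was not tested.

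The immunoproteasome replaces the 3 catalytic subunits of the proteasome (PSMB5, PSMB6 and PSMB7) with PSMB8, PSMB9 and PSMB10, which favours peptides that fit class I molecules. Psmb10 (chromosome 8, 105935735 to 105938444, mm10) had a lowest, median and highest value of 14.0, 16.7 and 18.8 CPM in PBS. In GH these were 11.3, 12.3 and 13.7 CPM. Every GH liver lay below every PBS liver, with GH replicate 1 and PBS replicate 2 nearest to each other. The log2 fold change was -0.41 ± 0.08 (SE, n = 6; adjusted p = 0.00894), with a 95% interval of -0.59 to -0.24. With 1 library left out it stayed called in all 12 fits (adjusted p from 0.00446 to 0.0240), and DESeq2 called it too. Groups without overlap were seen in 1 of the 36 genes, which was Psmb10, with GH lower, against 3.18% of the genes tested (1.72% with GH lower).

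Psmb8 ran from 12.5 to 21.7 CPM in PBS and from 13.8 to 16.8 CPM in GH, with a log2 fold change of -0.23 (adjusted p = 0.311). Psmb9 ran from 5.99 to 9.22 CPM and from 5.76 to 7.65 CPM, with -0.14 (adjusted p = 0.582). The GH values of both genes lay within or just under the PBS range, and the PBS livers spread more widely than the GH livers. Psmb9 shares 212 exonic bases with Tap1 on the opposite strand.

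The constitutive counterparts did not pass: Psmb5, Psmb6 and Psmb7 had log2 fold changes of 0.03, -0.07 and -0.03 (lowest adjusted p 0.624). Per exonic length, the PBS livers had a ratio of Psmb10 to Psmb7 of 0.341 ± 0.0342 and the GH livers of 0.260 ± 0.00945 (SD, n = 6). It differed by -0.38 on the log2 scale (two-sided exact permutation p = 0.00216, the smallest that 924 assignments allow, and 0.00649 adjusted over 3 such ratios). Psmb8 to Psmb5 had 0.119 ± 0.0207 and 0.101 ± 0.0117 (exact p = 0.0996, adjusted 0.149), and Psmb9 to Psmb6 had 0.0420 ± 0.00726 and 0.0398 ± 0.00277 (exact p = 0.606). These ratios were chosen after the values of Psmb10 were seen, and the first repeats the change of that gene against a partner that did not pass.

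**Figure D4:**
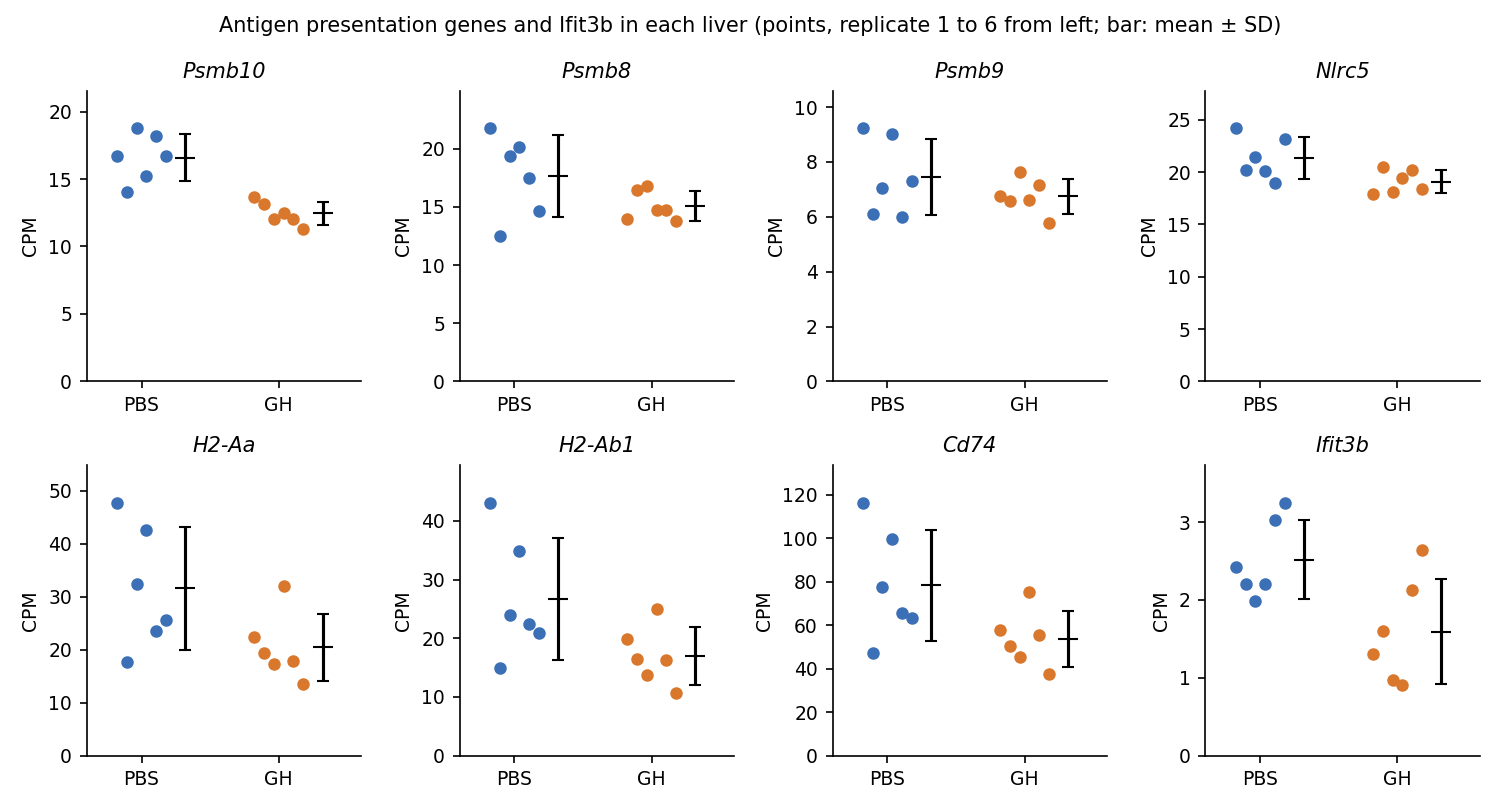
CPM of 8 genes in each liver, PBS in blue and GH in orange, with replicates 1 to 6 from left to right in each group and the mean ± SD as a bar. The groups are apart for Psmb10 and overlap for Psmb8, Psmb9, Nlrc5, H2-Aa, H2-Ab1, Cd74 and Ifit3b, and PBS replicate 1 is the highest point of all 3 class II genes.

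Peptide loading genes were close to their PBS level. Tap1, which forms the transporter that moves peptides into the endoplasmic reticulum together with Tap2, had a lowest, median and highest value of 17.4, 19.4 and 23.03 CPM in PBS and of 15.0, 17.8 and 20.2 CPM in GH. The groups overlapped, and the log2 fold change was -0.15 ± 0.09 (SE, n = 6; adjusted p = 0.371). Tap2 had -0.02 and Tapbp, the tapasin that bridges transporter and class I molecule, had -0.03. Tapbp shares 149 exonic bases with Zbtb22 on the same strand.

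The class I genes themselves were among the most even of the 36. B2m ran from 1005 to 1321 CPM in PBS and from 1080 to 1246 CPM in GH (log2 fold change -0.05, 95% interval -0.22 to 0.11). H2-K1 had 861 ± 93.6 and 914 ± 63.7 CPM, and H2-D1 378 ± 50.9 and 414 ± 19.7 CPM (SD, n = 6), with changes of 0.09 and 0.13. Their ranges over the 12 livers were 1.31-fold for B2m, 1.32-fold for H2-K1 and 1.39-fold for H2-D1. H2 genes have many near-identical relatives in the same region, so counts of H2-K1 and H2-D1 may hold reads of others.

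Nlrc5, the transactivator of class I genes, had a lowest, median and highest value of 18.9, 20.8 and 24.2 CPM in PBS and of 17.9, 18.9 and 20.4 CPM in GH. Its log2 fold change was -0.16 ± 0.07 (SE, n = 6; adjusted p = 0.244). The 2 ranges overlapped. PBS replicate 1 was the highest of its group for 9 of the 10 MHC and immunoproteasome genes other than class II. Without that library the median change of the 13 genes was -0.10, against -0.15 with it.

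The class II genes had the lowest estimates of the antigen presentation group, and none passed. H2-Aa and H2-Ab1 encode the 2 chains of the I-A molecule, and Cd74 the invariant chain that escorts it. H2-Aa had a lowest, median and highest value of 17.6, 28.9 and 47.7 CPM in PBS and of 13.4, 18.6 and 31.9 CPM in GH. H2-Ab1 had 14.9, 23.2 and 43.1 CPM in PBS and 10.6, 16.3 and 25.0 CPM in GH. For Cd74 these were 47.1, 71.7 and 116 CPM in PBS and 37.6, 52.9 and 75.3 CPM in GH. The groups overlapped for each gene: PBS replicate 2 lay among the GH livers, and GH replicate 4 among the PBS livers.

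The log2 fold changes were -0.63 ± 0.27 for H2-Aa, -0.65 ± 0.27 for H2-Ab1 and -0.54 ± 0.23 for Cd74 (SE, n = 6; adjusted p = 0.230, 0.215 and 0.215). With 1 library left out the change of H2-Aa ran from -0.80 to -0.48, and no class II gene passed. Without the 4 livers of high Dbp the changes were -0.44, -0.45 and -0.42. The 3 genes moved as a unit across livers: Cd74 spanned 3.10-fold and H2-Ab1 4.06-fold over the 12 livers, while the ratio of H2-Aa to Cd74 spanned 1.32-fold and that of H2-Ab1 to Cd74 1.31-fold. PBS replicate 1 was the highest and PBS replicate 2 the lowest PBS liver for all 3, and GH replicate 4 and GH replicate 6 held these places in GH.

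In the liver class II is made mainly by dendritic cells, B cells and macrophages, and in whole tissue fewer such cells and less RNA per cell cannot be told apart. The summed level of the 11 Kupffer cell markers ran from 290.8 to 444 CPM in PBS and from 303 to 391 CPM in GH, with PBS replicate 2 the lowest, and none of the 11 was called. Of these 11 markers 10 had a log2 fold change below 0 (90.9%, against 49.9% of all genes tested). Their median was -0.13, with a range of -0.40 to 0.03. Markers of 1 cell type are not counts of independent events. The 6 dendritic cell markers summed to 9.96 to 14.4 CPM in PBS and 9.78 to 13.5 CPM in GH, with PBS replicate 2 the highest. Zbtb46 and Clec9a carried this sum (10.04 and 3.75 CPM in PBS replicate 2), while Cd209a and Itgax were the lowest of PBS in that liver, at 0.0469 and 0.329 CPM. Flt3, Xcr1, Cd209a, Itgax and Zbtb46 each had a lower mean in GH, as the class II genes did. Clec9a had a higher one, with 2.92 CPM in PBS and 3.07 CPM in GH. The GH mean of Cd209a came from GH replicate 4 alone (0.228 CPM). None of the 3 dendritic markers that passed the filter was called. The 5 B cell markers summed to 5.90 to 14.2 CPM and 6.33 to 18.6 CPM. No marker of these lists was at 0 in every library, but Cd209a, Xcr1 and Flt3 had totals of 22, 41 and 62 counts over the 12 libraries. The part of these cells in the class II values was not tested.

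The remaining cell type lists were read for the same reason. Plasmacytoid dendritic cell, T and NK cell and neutrophil markers were sparse, with 1 of 4, 1 of 8 and 2 of 5 past the filter and none called. None of the 8 sinusoidal endothelial, 5 cholangiocyte and 6 hepatocyte markers was called. Of the 6 stellate cell and fibroblast markers 1 fell, Dcn, which encodes the matrix proteoglycan decorin, with a log2 fold change of -0.38 (adjusted p = 0.00296). The hepatocyte markers that define the tissue were the most abundant, with a summed level of 94990 to 112800 CPM in PBS and 77370 to 101500 CPM in GH. Of the 6, 5 had a log2 fold change below 0 (83.3%, against 49.9% of all genes tested). The part of this in the other values was not tested.

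Upstream of these genes, interferon transcripts were at or near the limit of detection. Of 10 interferon genes none passed the filter and 6 had no count in any library, among them Ifnb1, Ifna1 and Ifna4. A count of 0 allows up to 3 counts per library, or 0.129 to 0.154 counts-per-million. Ifng, the type II interferon gene, had 6 counts over the 12 libraries, and Ifnl2 had the most with 23.

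Receptor and kinase genes other than Ifnlr1 were present, and none was called. Ifnlr1, an interferon receptor gene, had 22 counts over the 12 libraries and did not pass the filter. Ifnar1 and Ifnar2, the chains of the type I receptor, had 46.4 ± 2.07 and 53.97 ± 7.15 CPM in PBS and 43.3 ± 3.18 and 53.4 ± 3.30 CPM in GH (SD, n = 6). Jak2, which GH and interferon gamma both use, had a log2 fold change of 0.05. Tyk2, the kinase of the type I receptor, had 0.18 (adjusted p = 0.211), and Ifngr2, a chain of the interferon gamma receptor, had 0.21 (adjusted p = 0.280).

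Of 17 sensor and adaptor genes tested 1 fell (5.88%, against 4.79% of all genes tested called). Ikbke, an inflammation-linked kinase that works beside TBK1 on the way to interferon production, went from 16.4 ± 2.57 to 10.8 ± 1.73 CPM (SD, n = 6). Its log2 fold change was -0.61 ± 0.12 (SE; adjusted p = 0.00825), and it stayed called in all 12 fits with 1 library left out. The groups overlapped for Ikbke, with 13.5 CPM in GH replicate 3 and 12.9 CPM in PBS replicate 1. Tbk1 and Mavs had -0.22 and -0.24 (adjusted p = 0.121 and 0.175). Over the 17 the median was -0.17, with 15 below 0 (88.2%, against 49.9% of all genes). Of 6 negative regulators edgeR called none. Adar, the RNA editor that keeps self RNA from being sensed, had 21.04 to 23.34 CPM in PBS and 16.8 to 20.9 CPM in GH, which did not overlap. Groups without overlap were seen in 3.18% of the genes tested. The change of Adar was -0.22 (edgeR adjusted p = 0.0670, DESeq2 0.0346). With 1 library left out edgeR did not call it in 11 of 12 fits (highest adjusted p 0.143). With the replicate number as a block in edgeR it did not pass either (adjusted p = 0.147).

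A second list of 44 tested interferon-stimulated genes outside the 36 held 3 that fell and none that rose (6.82% called, against 4.79% of all genes tested), with a median of -0.05. Cxcl9, a chemokine gene induced by interferon gamma, went from 7.53 ± 1.94 to 3.99 ± 1.51 CPM (SD, n = 6; log2 fold change -0.91, adjusted p = 0.0312). Ifi47, an immunity-related GTPase gene, changed by -0.69 and Nmi, which encodes a partner of STAT proteins, by -0.33 (adjusted p = 0.0247 and 0.0292). For Nmi the groups did not overlap, while those of Cxcl9 and Ifi47 did.

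These 3 calls lay near the threshold, and with 1 library left out the changes ran from -0.80 to -0.60 for Ifi47, -0.37 to -0.29 for Nmi and -1.15 to -0.80 for Cxcl9. The call of Ifi47 was lost without PBS replicate 3, PBS replicate 4 or GH replicate 1 (highest adjusted p 0.0608). For Nmi 6 single libraries each ended the call when removed (PBS replicates 3, 4 and 6 and GH replicates 1, 2 and 5; highest 0.0752) and for Cxcl9 8 did so (PBS replicates 1, 3 and 4 and GH replicates 1 to 5; highest 0.0743). With the replicate number as a block in edgeR none of the 3 passed (adjusted p = 0.0644, 0.0782 and 0.0958 for Ifi47, Nmi and Cxcl9). DESeq2 on all 12 libraries called all 3 (adjusted p = 0.00172, 0.00858 and 0.00204 in the same order).

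Further genes of antigen presentation did not pass, with 0 of 27 tested called and a median of -0.11. H2-Eb1, another class II chain, had 20.99 ± 8.52 CPM in PBS and 13.6 ± 5.08 CPM in GH (SD, n = 6; log2 fold change -0.63, adjusted p = 0.272), close to the values of the class II genes above. Ciita, the master regulator of class II genes, had 1.54 ± 0.443 and 1.59 ± 0.170 CPM (0.05, adjusted p = 0.929). The smallest p was that of Rfx5, which encodes a DNA-binding part of the same assembly, with -0.36 (adjusted p = 0.140).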

How the data were processed

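Total RNA of 12 livers was sequenced, per the labels' protocols, from both ends for 125 cycles after ribosomal RNA depletion with a stranded kit (250 ng of RNA, 12 amplification cycles). The submitters' processing notes name STAR 2.4.0i and mm10. The exon counter, its annotation and its strand setting were not given in the sources used here. Per the file headers the authors deposited raw counts of exonic reads per gene, without normalization.

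Genes were filtered with filterByExpr (minimum count 10), scaled by TMM and tested with edgeR 4.0.16 (R 4.3.3; robust quasi-likelihood fit, group as the only term, two-sided F test, Benjamini-Hochberg adjustment over 14235 genes, threshold 0.05). SE is the absolute log2 fold change over the square root of F, and 95% intervals use the test's degrees of freedom. Exonic lengths, overlaps (at least 50 bases) and coordinates came from GENCODE M21 (mm10). DESeq2 1.42.0, other scalings and filters, a replicate block and fits without single libraries were alternatives. The procedure was tested on simulated data. Values in every group were given for called genes and, where a role had none, for the gene with the smallest p; of the other lists, called genes or up to 3 with the smallest p were named, and further named genes were chosen after their values were seen. One gene of the receptor and signalling list is not reported here. The 36 genes and all lists were chosen with earlier results of these data known.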

Additional observations from a re-analysis of the deposited data

Results flagged for a closer look

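In each group of 6 livers the highest and the lowest value of every gene were compared with the rest, on the log2 CPM scale, and 3 of 72 such groups held a liver that stood apart (a gap to its neighbour over 0.625 of the range of the group). Chance alone flags about 1 in 20 groups. Ifi44 was high in PBS replicate 4, with 4.52 CPM against 2.14 to 2.68 CPM in the other PBS livers. Ifit2 was low in PBS replicate 3, with 4.20 CPM against 5.39 to 5.97 CPM. Usp18 was low in GH replicate 2, with 3.69 CPM against 5.397 to 6.66 CPM in the other GH livers.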

How the results depend on the processing

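The call of Psmb10 was kept under every alternative that was run, with its lowest margin under the replicate block (adjusted p = 0.0475). The count over all genes was 682, 1058 in DESeq2, 391 with the replicate block and 434 to 854 with 1 library left out (434 without GH replicate 2, 447 without GH replicate 1). Of the 36 genes 1 to 2 were called with 1 library left out, the 2 being Psmb10 and Ifit3b without GH replicate 6. Without the 4 livers of high Dbp, left out after seeing the data, 818 of 14237 genes and 3 of the 36 were called (Psmb10, Ifit3b and Isg15). In that fit the direction turned for Oas2 (-0.04), Oasl1 (-0.00761), Mx1 (-0.33), Rsad2 (-0.23), Bst2 (0.03) and B2m (0.03). The median changes of the type I antiviral genes (-0.15 to -0.03) and of the MHC and immunoproteasome genes (-0.21 to -0.10) stayed below 0 throughout. Without GH replicate 6 and PBS replicate 5 together the direction turned for Bst2 (0.08), Irf1 (-0.07), Mx2 (-0.11) and Rsad2 (-0.03). With 1 library left out it turned for 10 genes, none of them called: Ifit1 (-0.15 to 0.03), Mx1 (-0.15 to 0.27), Mx2 (-0.05 to 0.28), Rsad2 (-0.07 to 0.16), Ifi44 (-0.36 to 0.00492), Ifi27l2a (-0.00857 to 0.27), Bst2 (-0.08 to 0.05), Stat2 (-0.10 to 0.01), Tap2 (-0.06 to 0.02) and Tapbp (-0.08 to 0.06). The cause was not tested. Same-numbered samples of the groups had correlated deviations of -0.175 to 0.159 over 14235 genes, and 1 of 6 GH libraries correlated best with its own number, so the numbers were not taken as pairs. Genes near 1 CPM, such as Mx1 and Oas1b, are limited by depth.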

Other observations

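The 4 livers with high Irf1 and Mx2 stood apart in Dbp and Tef, clock-controlled transcription factor genes that were chosen after their values were seen. Dbp had 32.2 and 22.3 CPM in PBS replicates 1 and 2 and 20.96 and 8.61 CPM in GH replicates 5 and 6, while the other 8 livers lay between 0.604 and 2.46 CPM. Tef had 106 and 89.0 CPM in the same PBS livers and 105 and 83.9 CPM in the same GH livers, against 28.0 to 61.2 CPM in the others. The labels give all 12 livers the same collection time, ZT 2. Neither gene passed between the groups (log2 fold change -0.70 and 0.24, edgeR adjusted p = 0.816 and 0.815).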
